A study of Mus musculus with 15 samples.

Results

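Sema7a and Plxnc1 encode a membrane-anchored semaphorin and the plexin that receives it, and they were 2 of the 46380 gene symbols counted in all 15 libraries of nuclear RNA from parvalbumin neurons of the mouse cerebral cortex. The pair was chosen by name as a ligand and its receptor. Sema7a was also chosen for its values, a higher level in PTU+TH than in PTU and a lower level in Mut than in Ctrl, so its values are described here without a test. Plxnc1 was taken as the receptor, and its values were not part of the choice.

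Fluorescent nuclei were sorted from the cortex of individual adult mice. Every mouse carried PvCre, which drives Cre from the parvalbumin gene, and ROSA-tomato-lox, the Cre-dependent fluorescent reporter. PTU+TH mice (n = 4, Thra+/+) ate food with propylthiouracil, which lowers circulating thyroid hormone, for 2 weeks and were injected intraperitoneally with thyroid hormone, 24 h ahead of dissection. PTU mice (n = 3, Thra+/+) received the 2 weeks of diet alone. Mut mice (n = 4, ThraAMI/+) were littermates of the Ctrl mice and carried 1 floxed allele that expresses a dominant negative thyroid hormone receptor alpha once Cre has acted. Ctrl mice (n = 4, Thra+/+) were untreated. The diet and the injection act on the whole animal, whereas the mutant receptor is made where PvCre is active. The titles number separate mice, which were read as the replicates.

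Semaphorins are guidance proteins that act on neighbouring cells through plexins. Sema7a differs from the other mouse semaphorins in being held on the cell surface by a glycosylphosphatidylinositol (GPI) anchor. It binds plexin C1 and also integrins of the beta 1 family, through which it promotes axon outgrowth in the mouse. Thyroid hormone acts on genes through nuclear receptors that bind DNA with or without the hormone, and a dominant negative receptor stays bound without responding to it.

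The libraries held 12957838 to 19141683 counts in PTU+TH and PTU and 22333742 to 32571175 in Mut and Ctrl. These were 2 sets of tables with different gene lists (55341 and 48321 genes), so in any comparison of PTU+TH or PTU with Ctrl the treatment and the set cannot be told apart. Values are CPM, counts scaled to library size, on 1 scale for the 15 libraries. Thra had 30.6, 28.5, 39.1 and 33.0 CPM in Mut, against 62.5, 58.6, 49.6 and 64.0 CPM in Ctrl, so all Mut libraries lay below all Ctrl libraries. The 12 marker genes of parvalbumin neurons summed to 6667 to 11545 CPM. Pvalb, the gene whose Cre marked the nuclei, was at 119 to 150 CPM in PTU+TH, against 90.5 to 105 CPM in PTU, and at 67.1 to 92.6 CPM in Mut, against 115 to 138 CPM in Ctrl, so that like Sema7a it did not overlap in either comparison. Ranges did not overlap for 8.47% of 14237 genes between PTU+TH and PTU and for 6.17% of 16369 genes between Mut and Ctrl. Markers of excitatory neurons, which the sort should exclude, summed to 184 to 281 CPM (11 genes), and the summed ranges of PTU+TH (204 to 281 CPM) and Mut (184 to 245 CPM) overlapped those of PTU (202 to 246 CPM) and Ctrl (194 to 245 CPM). Markers of other interneurons (10 genes) summed to 180 to 284 CPM in Mut, against 140 to 164 CPM in Ctrl, and to 93.6 to 164 CPM in PTU+TH, against 130 to 172 CPM in PTU. The part of Pvalb level and of these cells in the values below was not tested. Astrocyte markers summed to 30.2 to 59.6 CPM with Gfap at 0 throughout, oligodendrocyte markers to 89.6 to 216 CPM, microglial markers to 59.8 to 97.2 CPM with P2ry12 at 0, and vascular markers to 2.53 to 27.1 CPM.

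Sema7a lies on chromosome 9 (57940112 to 57962865, plus strand, GRCm38), spans 22754 bp with 14 blocks of exon sequence, and shares no exonic base with another annotated gene. Plxnc1 lies on chromosome 10 (94790866 to 94944835, minus strand), spans 153970 bp with 34 exon blocks, and shares 1.38% of its exonic bases with the small annotated genes inside it. The 250 bases before each transcription start are shown because Sema7a differed between the hormone groups and Plxnc1 did not pass any test. The sequences are those of RefSeq for GRCm38.p6, at chr9:57939862-57940111 on the plus strand for Sema7a and at chr10:94944846-94945095 on the minus strand for Plxnc1. Capitals mark matches to the GC box GGGCGG and to the hexamer GGGTCA, on either strand.
Sema7a: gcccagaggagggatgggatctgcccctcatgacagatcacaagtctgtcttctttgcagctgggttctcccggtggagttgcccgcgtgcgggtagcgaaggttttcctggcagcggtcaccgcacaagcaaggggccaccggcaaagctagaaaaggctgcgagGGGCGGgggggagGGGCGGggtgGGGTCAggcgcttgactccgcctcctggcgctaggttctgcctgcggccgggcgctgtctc
Plxnc1: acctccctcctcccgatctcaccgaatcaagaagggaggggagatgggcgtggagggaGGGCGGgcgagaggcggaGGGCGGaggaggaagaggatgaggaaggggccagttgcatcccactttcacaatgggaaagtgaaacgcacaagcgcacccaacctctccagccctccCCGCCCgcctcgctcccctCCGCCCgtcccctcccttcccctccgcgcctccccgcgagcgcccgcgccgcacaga
Neither window held the hexamer AGGTCA, the usual core of thyroid hormone response elements, on either strand, and neither held it as a direct repeat spaced by 4 bases (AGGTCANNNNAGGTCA). Of 32851 RefSeq windows of this length, 4607 held AGGTCA and 5 (0.0152%) the direct repeat. The Sema7a window held the related hexamer GGGTCA once, beginning 61 bases before the start, and 11.6% of all windows held it. The GC box occurred 2 times before Sema7a and 4 times before Plxnc1, and 32.7% of all windows held at least 1. GC content was 66.4% before Sema7a and 68.8% before Plxnc1, against a median of 52.4%. These matches describe the letters of these windows only.

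The level of Sema7a separated the 4 groups. It was 83.9, 74.9, 78.2 and 96.8 CPM in the PTU+TH libraries. In PTU it was 32.6, 39.0 and 33.8 CPM. In Mut it was 26.4, 25.6, 13.7 and 26.5 CPM, and in Ctrl 49.6, 51.3, 68.3 and 53.9 CPM. No library of any group fell within the range of another group, and the order from high to low was PTU+TH, Ctrl, PTU and Mut. Of 14018 genes tested in every comparison, 0.178% separated all 4 groups in this way, and the ranges of PTU+TH and PTU did not overlap for 8.47% of 14237 genes, nor those of Mut and Ctrl for 6.17% of 16369 genes. Nothing is read from these shares, because the choice of the gene used the same values. The means were 83.4 ± 9.63 CPM in PTU+TH, 35.1 ± 3.42 CPM in PTU, 23.1 ± 6.24 CPM in Mut and 55.8 ± 8.53 CPM in Ctrl (SD; n = 4, 3, 4 and 4). The gap between neighbours in this order was narrowest between PTU and Mut, where the lowest PTU library had 32.6 CPM and the highest Mut library 26.5 CPM.

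Plxnc1 showed no such order. It was 178, 194, 165 and 132 CPM in PTU+TH and 209, 160 and 157 CPM in PTU. In Mut it was 190, 145, 181 and 200 CPM, and in Ctrl 187, 130, 176 and 173 CPM. The ranges of all 4 groups overlapped. The means of 167 ± 26.2 CPM in PTU+TH, 175 ± 29.6 CPM in PTU, 179 ± 24.2 CPM in Mut and 167 ± 25.04 CPM in Ctrl (SD; n = 4, 3, 4 and 4) lay closer together than the SD within any group. In bulk nuclei, fewer cells with a transcript and less of it per cell cannot be told apart.

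**Figure D1:**
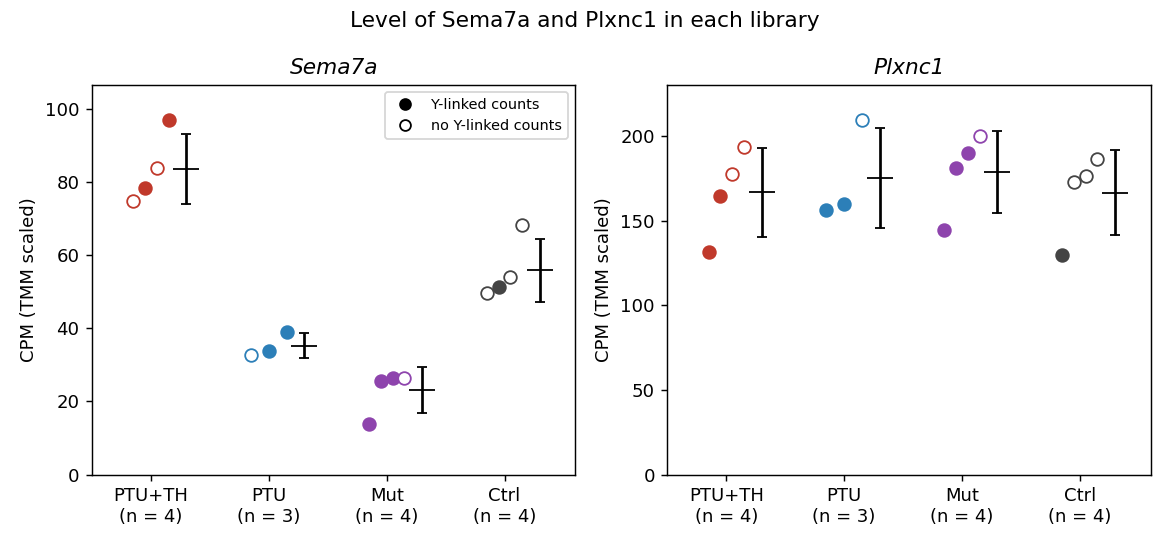
Each point is the CPM of Sema7a (left) or Plxnc1 (right) in 1 library, by group, with filled points for libraries with Y-linked counts and open points for those without, and bars give mean ± SD. Sema7a separates the groups, from 74.9 to 96.8 CPM in PTU+TH down to 13.7 to 26.5 CPM in Mut, whereas Plxnc1 overlaps in all groups and has its open points at the top of each.

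The comparison of PTU+TH with PTU asked how genes of these neurons stand 24 h after hormone is given to hormone-depleted mice. Sema7a was 2.39-fold higher in PTU+TH (log2 fold change 1.26 ± 0.12, SE), a contrast that served to choose it. Plxnc1 had a log2 fold change of −0.06 ± 0.17 (95% interval −0.46 to 0.33) and was not called by edgeR's quasi-likelihood test (adjusted p = 1.00), where 0.281% of 15288 genes were called. The interval leaves room for a change of Plxnc1 between 0.729-fold and 1.26-fold. The corepressor gene Hr, a classic thyroid hormone target in brain, had 48.0, 50.1, 43.1 and 47.5 CPM in PTU+TH, against 2.70, 5.88 and 3.17 CPM in PTU.

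The comparison of Mut with Ctrl asked what the dominant negative receptor alters. Sema7a in Mut was at 0.413 of its level in Ctrl (log2 fold change −1.28 ± 0.21, SE), again a contrast that served to choose it. The lowest library, Mut replicate 3, had 13.7 CPM where the other Mut libraries had 25.6 to 26.5 CPM, and without it the log2 fold change was −1.09 ± 0.16. Plxnc1 had a log2 fold change of 0.10 ± 0.14 (95% interval −0.21 to 0.42; edgeR adjusted p = 0.933), where 0.348% of 16949 genes were called. The bounds correspond to 0.865-fold and 1.34-fold.

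Set against untreated Ctrl, Sema7a was lower in PTU and higher in PTU+TH. The log2 fold change was −0.66 ± 0.15 in PTU against Ctrl (0.633-fold, 95% interval 0.502 to 0.797) and 0.58 ± 0.13 in PTU+TH against Ctrl (1.49-fold, 95% interval 1.23 to 1.82). The 3 PTU libraries all lay below the lowest Ctrl library (49.6 CPM) and the 4 PTU+TH libraries all above the highest (68.3 CPM). Every library here also entered the contrasts by which Sema7a was chosen, so these values too are a description without a test. The comparisons run across the 2 sets of tables, and edgeR called 17.0% of genes in PTU against Ctrl and 17.8% in PTU+TH against Ctrl, with 12.6% of genes lower in PTU and 4.72% higher in PTU+TH. Ranges did not overlap for 27.5% of genes between PTU and Ctrl and for 23.2% between PTU+TH and Ctrl. Both comparisons share the Ctrl libraries with each other and with Mut against Ctrl.

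Plxnc1 did not pass in either of these comparisons. Its log2 fold change was 0.08 ± 0.16 in PTU against Ctrl (95% interval −0.28 to 0.44; edgeR adjusted p = 0.793). In PTU+TH against Ctrl it was −0.00 ± 0.15 (95% interval −0.32 to 0.32; edgeR adjusted p = 0.997). Changes of Plxnc1 within these bounds are compatible with the values of 3 or 4 mice a group, and the smallest detectable change was not determined.

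**Figure D2:**
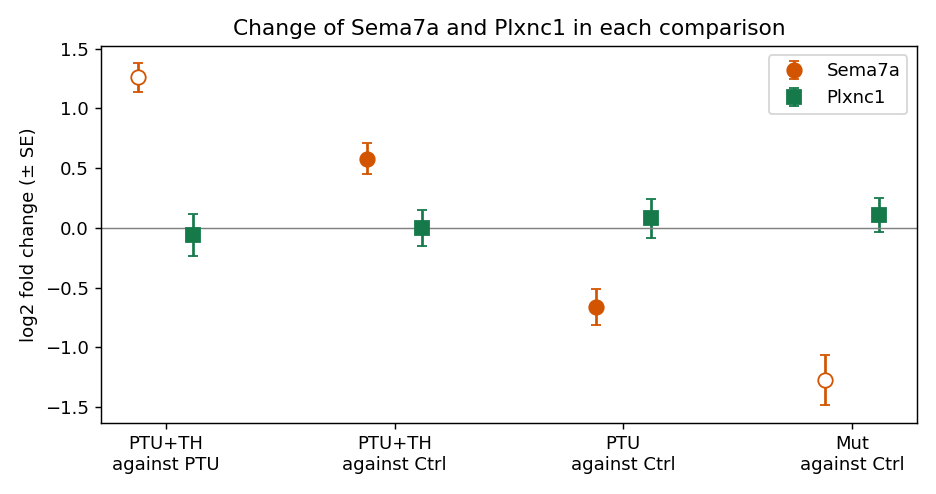
Points give the fitted log2 fold change (± SE) of Sema7a (circles) and Plxnc1 (squares) in each comparison, first-named group over second, with open symbols where the contrast served to choose the gene. Sema7a runs from 1.26 in PTU+TH against PTU to −1.28 in Mut against Ctrl, and Plxnc1 lies between −0.06 and 0.10.

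The ratio of Sema7a to Plxnc1 counts within a library does not depend on how libraries are scaled. It averaged 0.517 ± 0.150 in PTU+TH, 0.205 ± 0.0451 in PTU, 0.131 ± 0.0419 in Mut and 0.340 ± 0.0620 in Ctrl (SD; n = 4, 3, 4 and 4). The ranges of PTU+TH (0.387 to 0.734) and PTU (0.156 to 0.244) did not overlap, nor did those of Mut (0.0755 to 0.177) and Ctrl (0.265 to 0.394). The ranges of PTU+TH and Ctrl overlapped on this measure, as did those of PTU and Mut. The ratio carries the Sema7a values that served to choose the gene, so it is a description and adds no support to them. It also varied with the share of counts in long genes, described below. In every group the library with the lowest such share had the highest ratio.

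The receptor followed another property of the libraries. Plxnc1 is a long gene, and in libraries where genes longer than 100 kb took a larger share of the counts its level was higher. In PTU+TH these shares were 34.3%, 40.9%, 28.6% and 25.1% in the order of the Plxnc1 values given above, and in PTU 39.9%, 25.9% and 26.0%. In Mut they were 37.5%, 28.1%, 35.4% and 35.4%, and in Ctrl 40.6%, 30.1%, 33.7% and 32.3%. Within every group the library with the lowest share had the lowest Plxnc1, except PTU, where the libraries at 25.9% and 26.0% had 160 and 157 CPM. The long gene share went with the presence of counts from Y-linked genes, at 25.1% to 37.5% in the 8 libraries with them and 32.3% to 40.9% in the 7 without. Plxnc1 was 157 ± 21.7 CPM with and 188 ± 13.5 CPM without Y-linked counts (SD, n = 8 and 7), and within each group every library without them was above every library with them. Sema7a was 78.2 and 96.8 CPM with Y-linked counts and 83.9 and 74.9 CPM without in PTU+TH. It was 39.0 and 33.8 CPM with and 32.6 CPM without them in PTU. The Mut values were 13.7 to 26.4 CPM with and 26.5 CPM without Y-linked counts, and the Ctrl values 51.3 CPM with and 49.6 to 68.3 CPM without.

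With Y-linked counts as a covariate the log2 fold change of Sema7a was 1.28 ± 0.11 in PTU+TH against PTU and −1.17 ± 0.24 in Mut against Ctrl. It was −0.65 ± 0.16 in PTU against Ctrl and 0.57 ± 0.13 in PTU+TH against Ctrl. Plxnc1 with the Y-linked covariate had −0.12 ± 0.10 in PTU+TH against PTU (edgeR adjusted p = 0.687) and 0.29 ± 0.14 in Mut against Ctrl (edgeR adjusted p = 0.731). In PTU against Ctrl it ranged from 0.07 to 0.26 over the alternatives that kept every library (adjusted p by edgeR or DESeq2 at least 0.132). With the long gene share as a covariate Plxnc1 had −0.11 ± 0.07 in PTU+TH against PTU (edgeR adjusted p = 0.396) and 0.11 ± 0.10 in Mut against Ctrl (edgeR adjusted p = 0.756), with a smaller SE than in the fits without it.

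**Figure D3:**
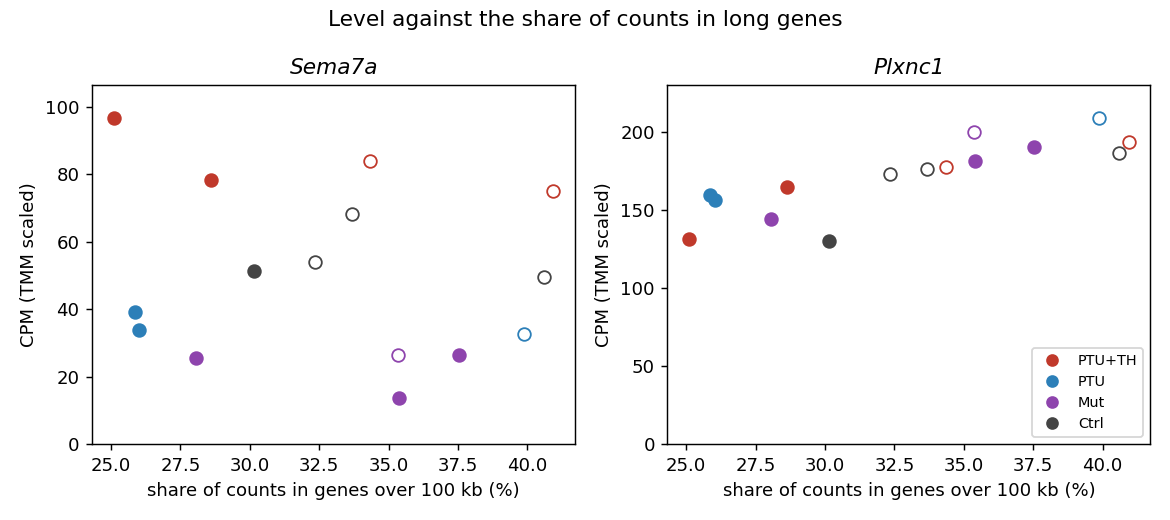
Each point is 1 library, with the share of its counts in genes longer than 100 kb on the x axis (%), the CPM of Sema7a (left) or Plxnc1 (right) on the y axis, colour for group, filled points for libraries with Y-linked counts and open points for those without. Plxnc1 is between 130 and 165 CPM in the libraries at up to 30.1% and between 173 and 209 CPM in those from 32.3%, whereas Sema7a follows the group.

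Among ligands of the same family, Sema7a was near the top in these nuclei. Levels of different genes were compared as CPM per kb of exon. In Ctrl the first of 20 semaphorins was Sema6b, a transmembrane semaphorin, at 22.2 ± 2.77 CPM per kb. Sema7a followed at 16.9 ± 2.59 CPM per kb and Sema6c at 11.3 ± 2.01 CPM per kb (SD, n = 4 each). The Ctrl ranges of Sema7a (15.03 to 20.7) and Sema6b (19.9 to 26.2 CPM per kb) overlapped, and Sema6c lay below both (9.35 to 14.04 CPM per kb). In PTU+TH Sema7a had 25.3 ± 2.92 CPM per kb, within the range of Sema6b (21.7 to 30.8). Its rank was 3 in PTU (10.7 ± 1.04 CPM per kb) and 5 in Mut (6.99 ± 1.89 CPM per kb).

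Plxnc1 was the second most abundant of 11 plexins and neuropilins in every group. In Ctrl it had 19.95 ± 3.00 CPM per kb, below Plxna4, a receptor of class 3 semaphorins (51.7 ± 5.46), and above Plxna2 (14.6 ± 1.45), whose range of 13.2 to 15.8 overlapped the 15.6 to 22.4 CPM per kb of Plxnc1. Itgb1, the beta 1 subunit of the integrins that bind Sema7a, had 54.3 ± 1.93 CPM in PTU+TH, 54.6 ± 4.57 in PTU, 58.1 ± 6.72 in Mut and 53.4 ± 7.28 in Ctrl. It passed no test (edgeR adjusted p 0.898 to 1.00 in its 4 comparisons), and its Ctrl level was 13.1 ± 1.78 CPM per kb. Itga1, an alpha subunit, was low, with 0.691 ± 0.40 CPM in PTU+TH, 0.678 ± 0.33 in PTU, 0.813 ± 0.45 in Mut and 0.701 ± 0.37 in Ctrl. Other alpha subunits were not examined here.

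**Figure D4:**
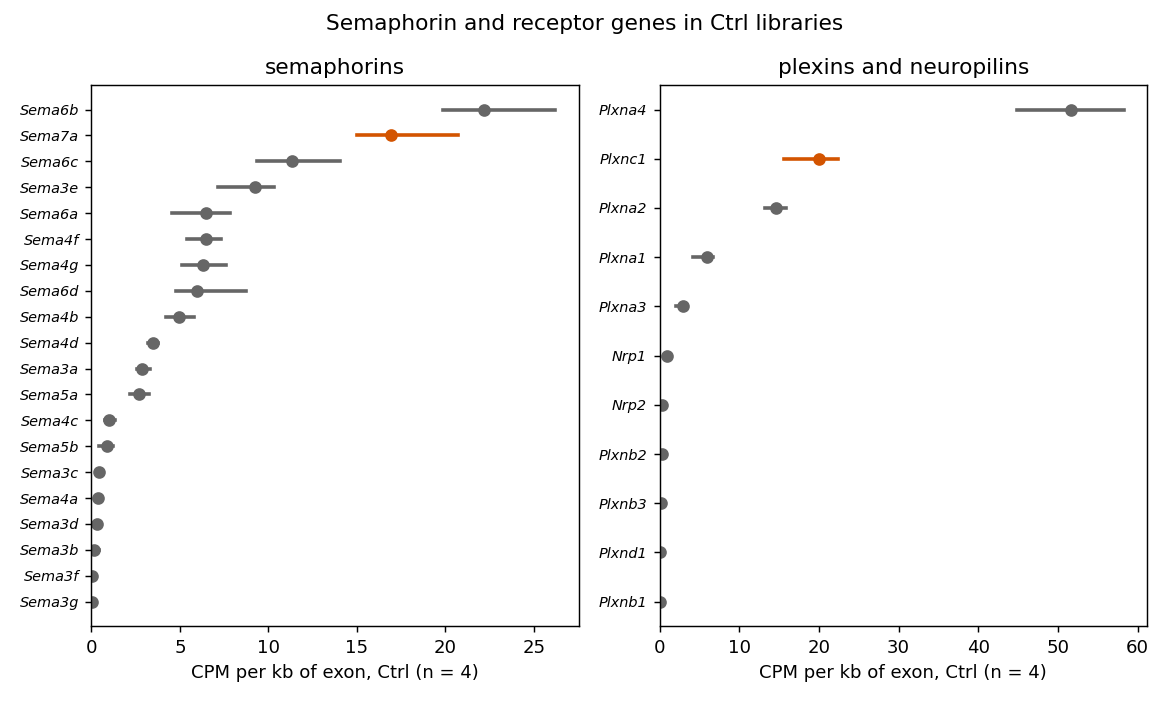
Points give the mean and lines the range over the 4 Ctrl libraries, in CPM per kb of exon, of 20 semaphorin genes (left) and 11 plexin and neuropilin genes (right), with Sema7a and Plxnc1 in orange. Both lie second in their family, at 16.9 and 19.95 CPM per kb.

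The other semaphorins were measured in the same comparisons. Of 19, 16 were tested in PTU+TH against PTU and 0 were called by edgeR, where 0.281% of all genes were called (0 at an unadjusted p under 0.05 and 0 by DESeq2), with a median log2 fold change of −0.01 against −0.00 for all genes. The smallest p were those of Sema4c (−0.48 ± 0.25, edgeR adjusted p = 0.789) and Sema3a, a secreted semaphorin found in perineuronal nets (−0.31 ± 0.18, edgeR adjusted p = 0.862). In Mut against Ctrl, 17 were tested and 0 were called by edgeR, where 0.348% of all genes were called (4 at an unadjusted p under 0.05 and 0 by DESeq2), with a median of 0.09 against 0.01 for all genes. The smallest p there were those of Sema5b (1.16 ± 0.36, edgeR adjusted p = 0.293) and Sema3f (1.80 ± 0.66, edgeR adjusted p = 0.409), Sema3f being at only 0.551 ± 0.133 CPM in Mut and 0.154 ± 0.116 CPM in Ctrl. Over all genes, 1126 of 15288 had an unadjusted p under 0.05 by edgeR in PTU+TH against PTU, and 1481 of 16949 in Mut against Ctrl. A difference between Sema7a and the other semaphorins was not tested.

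Across the 2 sets, Sema4d, a transmembrane semaphorin that signals through plexin B1, was higher in PTU+TH and PTU than in Ctrl. Its values separated the 2 sets of tables, which cannot be told apart from the PTU diet. They were 40.2 to 58.0 CPM in PTU+TH, 43.3 to 51.4 in PTU, 11.3 to 27.0 in Mut and 24.5 to 28.9 in Ctrl. Sema4d averaged 50.8 ± 7.94 CPM in PTU+TH and 47.6 ± 4.06 CPM in PTU, against 26.7 ± 1.85 CPM in Ctrl, with log2 fold changes of 0.92 ± 0.14 (edgeR adjusted p = 0.000286) and 0.84 ± 0.14 (edgeR adjusted p = 0.00102). In PTU against Ctrl, 2 of 16 semaphorins rose (Sema4d and Sema4f; 4.38% of all genes were called higher) and 1 fell (Sema3c, −1.10 ± 0.34, with 1.34 CPM in PTU and 2.89 CPM in Ctrl), with a median of 0.09 against −0.01 for all genes. In PTU+TH against Ctrl, 1 rose (Sema4d) and 2 fell (Sema3c and Sema3a), with a median of 0.17 against −0.02, where 4.72% of all genes were called higher and 13.1% lower. The calls of Sema4d held without any 1 library. Those of Sema4f and Sema3c in PTU held in 2 and 1 of 7 such fits (edgeR adjusted p up to 0.199 and 0.152), and that of Sema3a in PTU+TH in 2 of 8 (up to 0.108). The call of Sema3c in PTU+TH was lost in 1 fit of all groups (edgeR adjusted p = 0.136).

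Among the receptors, Plxna3, which takes part in class 3 semaphorin signalling, was the 1 gene of 10 called by edgeR in PTU+TH against PTU (2 by DESeq2, 2 with the Y-linked covariate and 3 with the long gene covariate), and it fell, where 0.0262% of all genes were called lower. It had 20.3, 21.8, 23.0 and 26.3 CPM in PTU+TH, against 37.5, 51.5 and 44.6 CPM in PTU. The log2 fold change was −0.95 ± 0.14 (edgeR adjusted p = 0.0379; 3 of the 10 had an unadjusted p under 0.05). This call was lost without PTU+TH replicate 1, 2 or 3 or PTU replicate 6 or 7 (edgeR adjusted p = 0.185, 0.102, 0.145, 0.243 and 0.178). Plxna3 had 37.1, 29.1, 44.3 and 38.2 CPM in Mut, against 15.9, 27.6, 23.7 and 25.5 CPM in Ctrl, so every Mut library was above every Ctrl library. Ranges of these 2 groups did not overlap for 6.17% of 16369 genes. The log2 fold change of Plxna3, 0.68 ± 0.19, did not pass by edgeR (adjusted p = 0.226) and passed by DESeq2 (adjusted p = 0.0382). In PTU against Ctrl it rose by 0.95 ± 0.20 (edgeR adjusted p = 0.00517), and this call held without any 1 library. Plxna3 was thus higher in PTU and Mut, the groups where Sema7a was lower, than in PTU+TH and Ctrl. That order of Sema7a served to choose it, and a relation between the 2 genes was not tested.

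In Mut against Ctrl, 0 of the 10 receptors were called by edgeR, where 0.348% of all genes were called (2 at an unadjusted p under 0.05 and 1 by DESeq2). The median was 0.16 against 0.01 for all genes, and Plxnb2, after Plxna3 the gene with the smallest p, had 1.29 ± 0.55 (edgeR adjusted p = 0.519). In PTU against Ctrl, Plxna3 and Plxnd1 rose (2 of 10 where 4.38% of all genes were called higher, median 0.24 against −0.01), the call of Plxnd1 (1.57 ± 0.47, with 1.73 CPM in PTU and 0.583 CPM in Ctrl) holding in 2 of 7 fits without 1 library. In PTU+TH against Ctrl, Nrp2, a coreceptor of class 3 semaphorins, rose (0.85 ± 0.23, edgeR adjusted p = 0.0233; 1 of 10 where 4.72% of all genes were called higher, median 0.32 against −0.02), and its call was lost without PTU+TH replicate 1 or Ctrl replicate 2, 3 or 4 (edgeR adjusted p 0.0545 to 0.0859) and in 1 fit of all groups (edgeR adjusted p = 0.232).

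**Figure D5:**
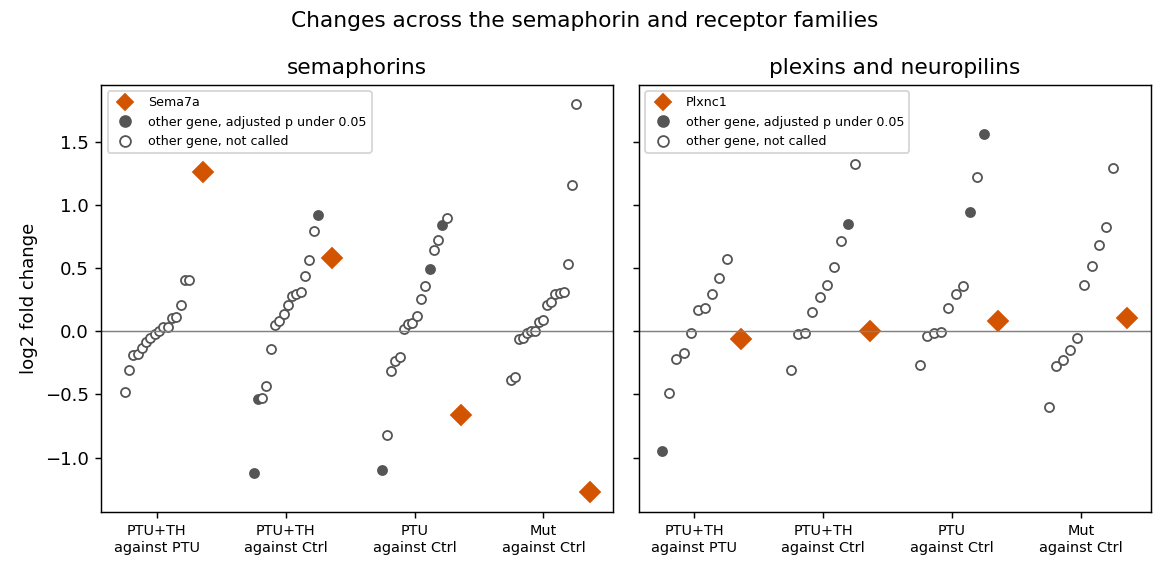
Circles give the log2 fold change of each tested semaphorin (left) or plexin and neuropilin (right) gene in each comparison, filled where the edgeR adjusted p is under 0.05, and diamonds give Sema7a or Plxnc1. Sema7a lies above every other semaphorin in PTU+TH against PTU and below every other in Mut against Ctrl. These contrasts served to choose it, so its place in them is a description only. Plxnc1 lies near 0 in all comparisons of these fits.

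The genes on which Sema7a signalling and surface display depend were measured next. Of 15 genes of its integrin receptor and of signalling downstream of integrins and plexins, 0 were called by edgeR in PTU+TH against PTU, where 0.281% of all genes were called. In Mut against Ctrl 0 were called, where 0.348% of all genes were called. In either, 0 had an unadjusted p under 0.05 and 0 were called by DESeq2. The medians of the list were 0.00 and 0.12 against −0.00 and 0.01 for all genes. The smallest p were those of Mapk3, a kinase of the ERK pathway (−0.42 ± 0.21, edgeR adjusted p = 0.746), and Rras2 (0.39 ± 0.27, edgeR adjusted p = 0.920) in PTU+TH against PTU. In Mut against Ctrl they were those of Rras2 (0.44 ± 0.22, edgeR adjusted p = 0.630) and Limk1, a kinase that inactivates cofilin (−0.22 ± 0.11, edgeR adjusted p = 0.650). Against Ctrl, 2 fell in PTU (Cfl1 and Rap1a, 2 of 15 where 12.6% of all genes were called lower, median −0.05 against −0.01) and 1 rose (Limk1, 0.44 ± 0.11, edgeR adjusted p = 0.0133) and 1 fell (Cfl1) in PTU+TH, where 4.72% of all genes were called higher and 13.1% lower, median −0.03 against −0.02. Cfl1, which encodes cofilin, separated the 2 sets of tables, which cannot be told apart from the PTU diet, with 4.49 to 6.24 CPM in PTU+TH, 4.15 to 7.68 CPM in PTU, 58.6 to 130 CPM in Mut and 71.9 to 78.7 CPM in Ctrl. The call of Rap1a (−0.44 ± 0.14) held in 1 of 7 fits without 1 library, and that of Limk1 was lost without Ctrl replicate 4 (edgeR adjusted p = 0.0526).

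The 6 genes for attachment and shedding of GPI-anchored proteins held 0 calls by edgeR in PTU+TH against PTU and 0 in Mut against Ctrl. Of all genes, 0.281% and 0.348% were called there, and 0 calls in a list this short is near those shares. In either, 0 of the 6 had an unadjusted p under 0.05 and 0 were called by DESeq2, with medians of −0.13 and 0.07. Adam17, a sheddase of membrane proteins, and Pigk, the catalytic subunit of the transamidase that adds the anchor, had the smallest p in both (Adam17 −0.18 ± 0.10 and 0.24 ± 0.13, edgeR adjusted p = 0.818 and 0.674). In PTU against Ctrl, Gpaa1, another transamidase subunit, rose by 0.52 ± 0.15 (edgeR adjusted p = 0.0378, held in 2 of 7 fits without 1 library; 4.38% of all genes were called higher), and the median was 0.12. In PTU+TH against Ctrl 0 of the 6 were called by edgeR, where 17.8% of all genes were called (2 at an unadjusted p under 0.05 and 0 by DESeq2). The median was 0.04, and the smallest p were those of Gpaa1 (0.36 ± 0.15, edgeR adjusted p = 0.131) and Adam17 (−0.25 ± 0.11, edgeR adjusted p = 0.156).

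Of the neighbours of Sema7a on chromosome 9, Cyp11a1 had the same order of group means and Ubl7 did not. The low values of Cyp11a1 in PTU, Mut and Ctrl overlapped, so only PTU+TH stood apart. Ubl7, which ends 10144 bp before Sema7a, had 28.9 ± 4.34 CPM in PTU+TH and 28.6 ± 5.95 CPM in PTU, and 27.2 ± 2.55 CPM in Mut and 23.1 ± 3.22 CPM in Ctrl. Cyp11a1, which encodes the enzyme that turns cholesterol into pregnenolone, begins 43546 bp beyond Sema7a. It had 7.73, 12.7, 6.40 and 9.28 CPM in PTU+TH, against 2.76, 1.16 and 0.889 CPM in PTU. The groups did not overlap, as for 8.47% of 14237 genes. The log2 fold change of 2.502 ± 0.43 did not pass by edgeR (adjusted p = 0.0730), whereas it passed by DESeq2 (adjusted p = 3.25e-06), and by edgeR without PTU replicate 5 (3.17 ± 0.39; adjusted p = 0.0213). It also passed by edgeR with no filter on low counts (adjusted p = 0.0169), with the Y-linked covariate (adjusted p = 0.000718) and with the long gene covariate (adjusted p = 9.29e-06). By edgeR it did not pass with RLE scaling (adjusted p = 0.0832) or in 1 fit of all groups (adjusted p = 0.229). Nor did it pass in 6 of 7 edgeR fits without 1 library (adjusted p up to 0.386). Against the 1.99, 2.04, 2.91 and 1.33 CPM of Ctrl, Cyp11a1 rose in PTU+TH by 2.12 ± 0.30 (edgeR adjusted p = 0.000197), a call that held without any 1 library. In PTU against Ctrl its log2 fold change was −0.36 ± 0.46 (edgeR adjusted p = 0.653). It had 0.420, 2.64, 0.161 and 0.838 CPM in Mut, a range that overlapped that of Ctrl (−1.03 ± 0.68, edgeR adjusted p = 0.773). Arid3b, 103319 bp before Sema7a, averaged 1.76 ± 0.34 CPM in PTU+TH and 1.15 ± 0.16 CPM in PTU, and 0.884 ± 0.60 CPM in Mut and 2.14 ± 0.81 CPM in Ctrl, and passed no test (log2 fold change 0.61 ± 0.32 and −1.28 ± 0.54, edgeR adjusted p = 0.793 and 0.524). Ccdc33, 65812 bp beyond it, was too low to test.

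The nearest genes of Plxnc1 passed no test. Cep83 ends 13 bp from the end of Plxnc1 on the opposite strand, and the library kits do not mark strand, so reads at their junction cannot be told apart. It had 178 ± 11.4 CPM in PTU+TH and 151 ± 15.8 CPM in PTU, and 188 ± 15.8 CPM in Mut and 202 ± 13.5 CPM in Ctrl, with edgeR adjusted p from 0.0512 (PTU against Ctrl) to 0.899. Tmcc3, Cradd and Socs2 had group means of 6.92 to 14.9 CPM and edgeR adjusted p from 0.0682 to 1.00.

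Over the 15 libraries, the genes whose log2(CPM + 1) was most like that of Sema7a were, of 10070 with at least 5 CPM on average, Hr (Pearson r 0.954), Acan, the aggrecan of perineuronal nets (0.936), Faap100 (0.932), Gpcpd1 (0.932), Crlf3 (0.926) and Npnt, the matrix protein nephronectin (0.914). These values describe likeness over libraries that share groups, 2 sets of tables and depth. They also carry the group differences by which Sema7a was chosen, so they add no support to those differences. Within groups, after group means were removed, r for the same genes was −0.08 to 0.51. Acan averaged 86.6 ± 8.06 CPM in PTU+TH, 49.3 ± 4.34 CPM in PTU, 32.9 ± 1.07 CPM in Mut and 65.2 ± 6.41 CPM in Ctrl, the same order of means as Sema7a. The share of all genes with that order was not determined. Npnt averaged 97.6 ± 14.1 CPM in PTU+TH, 48.1 ± 6.85 CPM in PTU, 36.4 ± 3.15 CPM in Mut and 68.9 ± 4.06 CPM in Ctrl.

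The genes most like Plxnc1 were Gria1, an AMPA receptor subunit (r 0.953), Tbc1d22a (0.945), Cers6, a ceramide synthase (0.944), Zmat4 (0.939), Cdkal1 (0.937) and Grik4, a kainate receptor subunit (0.934). Within groups r was 0.941 to 0.968 for these genes. They span 252842 to 663929 bp, against 9710 to 68547 bp for the genes most like Sema7a. Sema7a and Plxnc1 had r −0.26 with each other over the 15 libraries and −0.17 within groups.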

How the data were processed

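Per the labels' protocols, RNA of sorted nuclei was amplified with SMART-Seq v4, made into Nextera XT libraries and sequenced from single ends (NextSeq500). For each library the authors deposited raw counts per gene. Bowtie2 2.5.3, HTSeq and mm10 (GRCm38) are named in the submitters' processing notes; not given in the sources used here are the annotation release, counting mode and strand. Of all value columns, 0 belonged to other series. No pair of replicates was as alike as counting noise alone would make it (chi-square per degree of freedom at least 7.91).

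CPM were computed from the deposited counts over the 46380 shared symbols with TMM factors over all 15 libraries. Each comparison was fitted on its 2 groups in edgeR 4.0.16 (R 4.3.3; filterByExpr with a minimum count of 10, TMM, robust quasi-likelihood fits, Benjamini-Hochberg adjustment over all genes tested, calls at an adjusted p under 0.05), as tested on simulated data. The common biological coefficient of variation was 21.9% to 27.8%. Positions and exon lengths came from GENCODE M21. DESeq2 1.42.0, RLE scaling, no filter, 1 fit of all groups, covariates, leaving out each library and a replicate block were the alternatives. Long genes span over 100 kb (Sema7a and Plxnc1 left out of the share); Y-linked counts were called present at 50 CPM summed over Ddx3y, Eif2s3y, Kdm5d and Uty.

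The members and gene lists were chosen with earlier results of these data known. Named are, per list and comparison, up to 3 called members with the largest change or the 2 with the smallest p, the 2 nearest coding genes on each side, and the 6 genes most like each member.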

Additional observations from a re-analysis of the deposited data

Results flagged for a closer look

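Sema7a in Mut replicate 3 lay far below the other Mut libraries. It had 13.7 CPM, from 427 counts, where the others had 25.6 to 26.5 CPM, and the gap took 0.931 of the range of the group. Chance flags about 1 in 20 groups of this size. The same check was run on Sema7a, Plxnc1 and their ratio in every group but PTU, so a flag somewhere among them is likelier than that. The same library had the most counts of all (32571175) and the lowest Hr of the Mut libraries (0.482 CPM, against 0.927 to 3.94 CPM in the others), while its Plxnc1 (181 CPM) and its long gene share (35.4%) lay within the range of the others. Its Thra was the highest of the Mut libraries (39.1 CPM). Without it, Sema7a in Mut stayed below Ctrl, with a log2 fold change of −1.09.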

How the results depend on the processing

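In every alternative run, Sema7a kept its direction in all 4 comparisons. Without 1 library its log2 fold change was 1.19 to 1.33 in PTU+TH against PTU, −1.35 to −1.09 in Mut against Ctrl, −0.75 to −0.55 in PTU against Ctrl and 0.50 to 0.69 in PTU+TH against Ctrl. Plxnc1 was never called, but its sign varied around 0. Without 1 library it ranged from −0.16 to 0.11 in PTU+TH against PTU, from −0.08 to 0.15 in PTU against Ctrl and from −0.10 to 0.10 in PTU+TH against Ctrl; in the last it also turned from −0.00 to 0.005 (RLE, and DESeq2), 0.0026 (1 fit of all groups), 0.098 (Y-linked covariate) and 0.0583 (long gene covariate). Alternatives for list members, Cyp11a1 and list counts were chosen after seeing the data. The cause of these changes was not tested.

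The main fits did not pair samples by replicate number, and whether the numbers pair Mut with Ctrl mice was not settled. Same-numbered Mut and Ctrl deviations correlated at −0.04 to 0.31 and PTU+TH and Ctrl ones at −0.36 to 0.19, and 5 and 2 of 8 samples correlated best with their own number. With the replicate block Sema7a had −1.30 in Mut against Ctrl and 0.58 in PTU+TH against Ctrl, Plxnc1 had 0.11 and −0.0027, and 82 and 2424 genes were called, against 59 and 2814. The SE of Plxnc1 in Mut against Ctrl was 0.09 with the block and 0.14 without it.

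Counts of genes called were less stable. In PTU+TH against PTU they were 43, and 246 by DESeq2, 335 with the Y-linked covariate, 1016 with the long gene covariate and 5 to 29 without 1 library. In Mut against Ctrl they were 59, and 358, 31 and 211 in the same fits, 196 in 1 fit of all groups and 11 to 103 without 1 library. Against Ctrl they were 2804 in PTU (4283 without PTU replicate 5) and 2814 in PTU+TH (4462 with the long gene covariate).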
